A study of Mus musculus with 8 samples.

Results

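Cells hold on to the laminins of the vascular basement membrane through a small set of surface receptors, and 10 of their genes were followed here through single-cell transcriptomes of the mouse cerebral cortex. They were the integrin alpha chain genes Itga1, Itga3, Itga6, Itga7 and Itgav, the integrin beta chain genes Itgb1 and Itgb4, and the non-integrin receptor genes Dag1, Bcam and Mcam. The 10 genes were taken by their symbols from a feature table of 31053 genes, and each symbol matched 1 row. The study compared mice without laminin alpha4 or without endothelial laminin alpha5 with wild-type mice, using droplet-based single-cell RNA sequencing from the 3' end of transcripts. The groups were Lama4-/- mice and their own WT mice, and Tek-Cre:Lama5-/- mice and a further set of WT mice, all 8 weeks old and perfused through the heart before the brain was taken. Brains of 3 mice were pooled in each group, and the tissue is labelled as brain cortical plate. Each group had 2 samples, but both Lama4-/- samples held identical values and were counted as 1 library, which left 7 distinct libraries of the 8 samples. Tek-Cre is driven by the promoter of an angiopoietin receptor gene and recombines in endothelial cells and also in part of the blood cell lineage, whereas Lama4-/- is a deletion in every cell. The 2 libraries of a group came from 1 pool of mice, so p-values measure the spread between libraries of a pool and not between mice.

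An integrin is a pair of an alpha and a beta chain, and the alpha chain largely decides which ligand the pair binds. The pairs of Itgb1 with Itga3, Itga6 or Itga7 are the classical laminin receptors, Itga6 pairs with Itgb4 at hemidesmosomes, and Itga1 with Itgb1 binds collagen IV and laminins. Itgav integrins recognise short RGD motifs in matrix proteins. Dag1 encodes dystroglycan, which binds laminins through a sugar chain built by a dedicated set of enzymes, Bcam encodes a receptor of the immunoglobulin family with laminin alpha5 as its known ligand, and Mcam encodes CD146, for which laminin containing alpha4 has been described as a ligand.

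The libraries held 35479306 to 48314458 unique molecular identifiers (UMIs, each standing for 1 captured transcript). After removal of 4352 barcodes with few genes, 2355 with a high mitochondrial share and 3015 doublet-like ones, 47239 of 56961 barcodes were kept. They fell into 37 clusters, of which 29 could be named from marker genes, and 26382 cells in 13 clusters were endothelial-like. The libraries of the Lama4 experiment were deeper per cell (median 5268 to 6559.5 UMIs) than those of the Lama5 experiment (2901 to 3796.5 UMIs), and different clusters hold most endothelial-like and most microglia-like cells in the 2 experiments. Any 2 libraries shared 5 to 21 barcodes. Levels below are UMIs of a gene per 1000000 UMIs of the cells of a class in a library (CPM), and they were not divided by gene length because 1 tag is read per transcript. In summed counts, fewer expressing cells and less RNA per cell cannot be told apart.

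The targeted genes followed the labels. In endothelial-like cells Lama4 stood at 45.7 and 44.5 CPM in WT of the Lama4 experiment and at 0.060 CPM in the Lama4-/- library. In the Lama5 experiment, Lama5 stood at 42.5 and 41.5 CPM in both WT samples and at 22.3 and 24.3 CPM in the Tek-Cre:Lama5-/- libraries, a log2 fold change of -0.77 with an adjusted p of 5.2e-14 (edgeR's quasi-likelihood test). In smooth muscle-like cells Lama5 was at 145 and 140 CPM in WT and at 156 and 143 CPM in Tek-Cre:Lama5-/-. Which exons are deleted is not given in the sources used here, so 3' tags of Lama5 may lie outside the deleted part, and the level that remains does not measure intact transcript.

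The promoters of the genes that the results turn on are shown first: Itga1 and Bcam, which passed the test in Tek-Cre:Lama5-/- endothelial-like cells, and Itga3 and Mcam, whose ranges did not overlap between any of the 3 vessel zones. The sequences are the 250 bases upstream of the gene start in RefSeq (GRCm38.p6), which had an entry for 7 of the 10 genes and none for Itga6, Itga7 and Itgb4. The Bcam window lies inside the gene span given below for Bcam, and those of Itga3 and Mcam lie partly inside theirs. They are written 5' to 3' in the direction of the gene, and capitals mark a GC box (GGGCGG) or a CACCC box (CACCC), read on either strand.
Itga1, chr13:115101965-115102214, minus strand: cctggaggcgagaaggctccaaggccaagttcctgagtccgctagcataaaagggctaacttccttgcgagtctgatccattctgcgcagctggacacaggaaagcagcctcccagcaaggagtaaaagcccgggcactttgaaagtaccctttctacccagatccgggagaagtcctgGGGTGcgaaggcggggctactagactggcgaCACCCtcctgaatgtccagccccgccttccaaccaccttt
Bcam, chr7:19770533-19770782, minus strand: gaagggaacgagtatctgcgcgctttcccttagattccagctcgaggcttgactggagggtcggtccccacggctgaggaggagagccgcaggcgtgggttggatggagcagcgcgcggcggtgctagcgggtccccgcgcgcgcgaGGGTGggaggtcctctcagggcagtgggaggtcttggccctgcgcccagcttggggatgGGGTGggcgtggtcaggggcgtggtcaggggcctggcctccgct
Itga3, chr11:95076715-95076964, minus strand: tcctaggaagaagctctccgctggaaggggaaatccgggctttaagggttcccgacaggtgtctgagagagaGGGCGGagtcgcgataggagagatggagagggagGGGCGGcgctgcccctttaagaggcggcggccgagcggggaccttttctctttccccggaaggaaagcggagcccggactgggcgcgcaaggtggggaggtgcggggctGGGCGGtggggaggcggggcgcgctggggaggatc
Mcam, chr9:44134408-44134657, plus strand: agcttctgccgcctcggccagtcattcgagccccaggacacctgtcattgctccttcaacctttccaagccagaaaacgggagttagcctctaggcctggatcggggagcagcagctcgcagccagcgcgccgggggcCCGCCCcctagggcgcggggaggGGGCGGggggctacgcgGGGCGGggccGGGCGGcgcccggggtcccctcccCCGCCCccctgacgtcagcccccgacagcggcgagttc
The windows of Itga1 and Bcam each held 2 CACCC boxes and no GC box, with 57.6% and 70.0% G and C. The window of Mcam held 5 GC boxes and no CACCC box at 73.6% G and C, and that of Itga3 held 3 GC boxes and 1 ETS core (CCGGAA) at 67.6%. None of the 4 windows shown held the TATA box letters TATAAA. Itga3 had a second entry that is not shown (chr11:95069199-95069448), with 1 GC box and no ETS core at 50.8% G and C. Of 32851 promoters of the same length, 32.7% held a GC box, 52.0% a CACCC box, 12% an ETS core and 12.4% the TATA box letters. A match is a stretch of letters and not a measured binding site.

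Among the alpha chains, Itga1 was highest in pericyte-like, Itga6 in endothelial-like and Itga7 in smooth muscle-like cells. Here and below, only named classes with at least 20 cells in each library were ranked. Fibroblast-like, choroid plexus-like and neutrophil-like cells and the unnamed clusters were therefore left out of the ranking. Itga1 (chr13:114953096-115101964, minus strand, GRCm38) was highest in pericyte-like cells in 7 of 7 libraries, at a lowest level of 1163, a median of 1440 and a highest of 1543 CPM. Endothelial-like cells held 403 to 515 CPM of Itga1 and smooth muscle-like cells 364 to 566 CPM, and these ranges overlapped. Itga6 (chr2:71745616-71858416, plus strand) was highest in endothelial-like cells in 7 of 7 libraries, at 512, 559 and 565 CPM (lowest, median, highest). Microglia-like cells followed with 127 to 202 CPM and astrocyte-like cells with 79.0 to 128 CPM, while pericyte-like cells of all libraries together held 27 UMIs of Itga6 and smooth muscle-like cells 18. Endothelial markers in microglia-like cells stood at 0.382 to 0.701% of their endothelial level, whereas Itga6 stood at 30.9% of its endothelial level.

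Itga7 (chr10:128933818-128958282, plus strand), the alpha chain best known from muscle, was a mural gene here. It was highest in smooth muscle-like cells in 7 of 7 libraries (150, 173 and 200 CPM), followed by pericyte-like cells (87.3 to 183 CPM), and these ranges overlapped. Endothelial-like cells held 68 Itga7 UMIs of 132918974. Itga3 (chr11:95044474-95076801, minus strand) was low throughout, at 9.4 to 33.7 CPM in smooth muscle-like and 17.3 to 26.9 CPM in endothelial-like cells, which overlapped. Pericyte-like cells had no Itga3 UMI among 3565962, which allows a level of up to 0.841 CPM by the limit of 3 counts. Itgav (chr2:83724397-83806916, plus strand) was spread over non-endothelial classes, at 124 to 206 CPM in astrocyte-like, 83.1 to 180 CPM in microglia-like and 101 to 137 CPM in pericyte-like cells, all overlapping.

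Taken as shares of the UMIs of all 5 alpha chain genes, endothelial-like cells were split between Itga6 (51.6%, mean of 7 libraries) and Itga1 (44.6%). Pericyte-like cells were dominated by Itga1 with 84.8%. Smooth muscle-like cells had 64.3% Itga1 and 24.7% Itga7, and microglia-like cells 56.5% Itga6 and 42.3% Itgav. Astrocyte-like cells had 51.9% Itgav and 33.7% Itga6, and oligodendrocyte-like cells 91.2% Itgav. These shares count transcripts and not receptor protein.

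The beta chains were highest in different classes. Itgb1 (chr8:128685654-128733200, plus strand), the common partner of the laminin-binding alpha chains, was highest in smooth muscle-like cells in 7 of 7 libraries (1033, 1093 and 1156 CPM). Pericyte-like cells held 711 to 806 CPM and endothelial-like cells 348 to 401 CPM, so that these 3 ranges did not overlap. Microglia-like cells came next with 204 to 222 CPM. Itgb4 (chr11:115974709-116008412, plus strand) was highest in oligodendrocyte-like cells in 7 of 7 libraries (78.4, 94.2 and 117 CPM), then in ependymal-like cells (20.5 to 62.9 CPM), with 4.8 to 11.5 CPM in endothelial-like cells.

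All 3 non-integrin receptors were highest in mural cells. Mcam (chr9:44134469-44142727, plus strand) was at 695, 762 and 821 CPM in smooth muscle-like cells, where it was highest in 7 of 7 libraries. It was lower in pericyte-like cells (192 to 367 CPM) and oligodendrocyte-like cells (134 to 153 CPM), and at 16.0 to 21.05 CPM in endothelial-like cells. Bcam (chr7:19756131-19771016, minus strand) was likewise highest in smooth muscle-like cells in 7 of 7 libraries (389, 460 and 485 CPM). An unnamed mural cluster led by Rgs5 and Olfr558, described below, was not ranked. Its Bcam level was slightly above that of smooth muscle-like cells in WT of the Lama5 experiment. Pericyte-like cells (116 to 261 CPM) and endothelial-like cells (133 to 244 CPM) overlapped in Bcam. Dag1 (chr9:108204634-108263958, minus strand) was nearly level between smooth muscle-like cells (221 to 390 CPM) and pericyte-like cells (261 to 347 CPM), and either class led in some libraries. Ependymal-like and astrocyte-like cells held 115 to 175 and 103 to 136 CPM of Dag1, and endothelial-like cells 84.6 to 103 CPM.

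**Figure D1:**
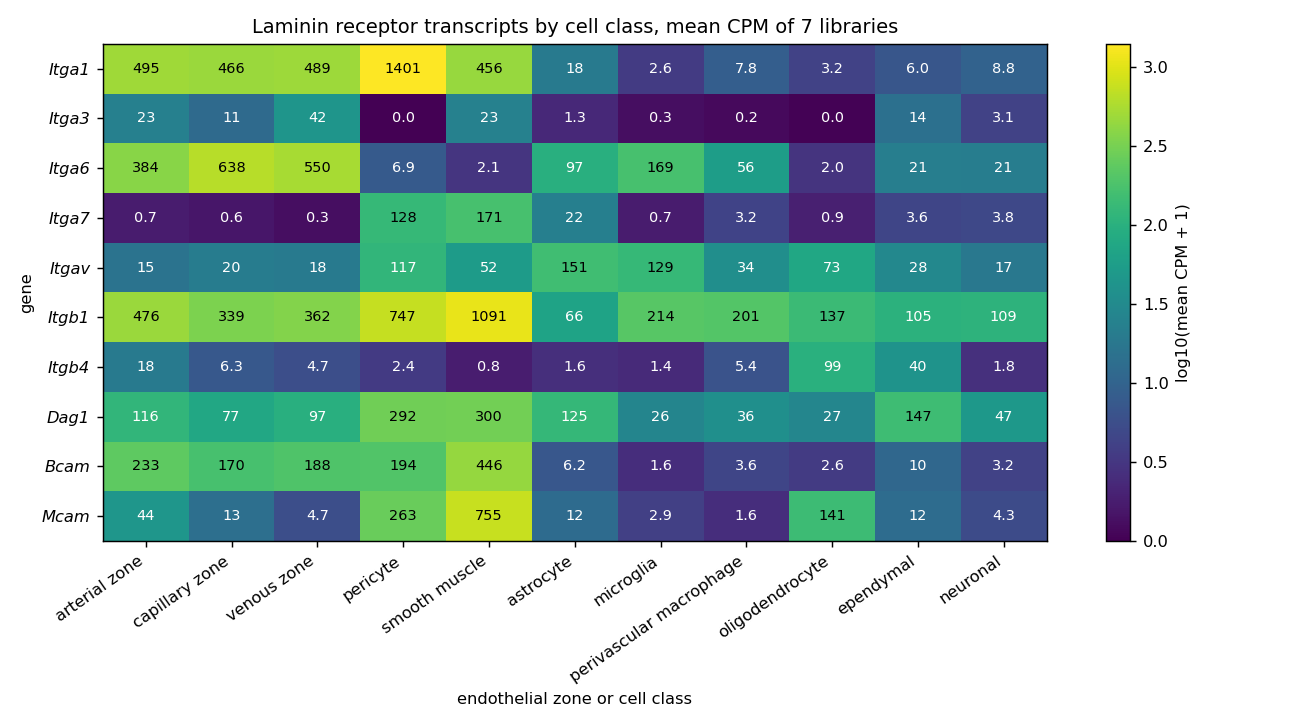
Heat map of the mean level (CPM, log colour scale) of each of the 10 receptor genes (rows) in the endothelial zones and cell classes (columns), averaged over the 7 libraries. Itga6 is highest in the endothelial columns, Itga1 in pericyte-like cells at 1401 CPM, Itgb1, Mcam and Bcam in smooth muscle-like cells, and Itgb4 in oligodendrocyte-like cells.

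Several other genes shared these class profiles. Over the mean levels of 12 classes, drawn from the same 7 libraries, the genes most like Itga1 were Ebf1 (Pearson's r 0.970) and Foxf2 (0.956), and those most like Bcam were Igfbp7 (0.959) and Prss23 (0.947). The gene most like Itga7 was Notch3 (0.945), and Prkch (0.917) was most like Itga6. Itgb1 was most like Lrrc32 (0.925) and Dag1 most like Pkd1 (0.942). The gene most like Mcam was Gm10687 (0.945), an antisense gene that overlaps Mcam on the opposite strand. Whether counting used strand is not given in the sources used here, so reads of this pair cannot be told apart with certainty, although Gm10687 had only 1411 UMIs in all cells. The weakest matches were those of Itgav, with Slc13a3 at 0.799.

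Within the endothelium, the receptors split into arterial, venous and capillary patterns. The 15 endothelial sub-clusters were placed by zone markers into an arterial zone (3626 cells), a capillary zone (13300 cells) and a venous zone (3334 cells), and 6122 cells had no clear zone. Each zone difference is a description with no test, because the zones come from clusters of the same cells, and is a log2 ratio of CPM within a library with its SD over 7 libraries.

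Mcam was chiefly arterial. Its arterial levels were 39.1, 45.1 and 47.6 CPM (lowest, median, highest), its capillary levels 10.3, 12.2 and 20.1 CPM, and its venous levels 2.4, 4.6 and 6.6 CPM. The 3 zones did not overlap, and the order arterial, capillary, venous held in 7 of 7 libraries. The log2 ratio was 1.76 ± 0.31 for arterial over capillary and 3.14 ± 0.44 for arterial over venous. Within the arterial zone Mcam was higher in the sub-clusters led by Nov and S100a6 (70.7 CPM) and by Mgp and Fbln5 (51.6 CPM) than in the sub-cluster led by Vegfc and Igfbp3 (25.1 CPM). Mean Mcam levels were 755 CPM in smooth muscle-like and 17.8 CPM in endothelial-like cells. The part of smooth muscle RNA in the arterial Mcam level was not tested.

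Itga3 had the opposite weight, with its highest level in veins. Venous levels were 32.4, 42.4 and 50.8 CPM, arterial levels 18.2, 22.6 and 26.1 CPM, and capillary levels 7.9, 12.3 and 13.2 CPM, with no overlap between zones. The log2 ratio of venous over capillary was 1.88 ± 0.14, and that of arterial over capillary was 0.98 ± 0.16, each positive in 7 of 7 libraries. The venous sub-cluster led by Lcn2 and Lrg1 held 60.3 CPM of Itga3, compared with 6.6 CPM in the capillary sub-cluster led by Slc26a10 and Nbl1.

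Itga6 was lowest in arteries. Its arterial levels were 341, 382 and 417 CPM, its venous levels 442, 554 and 594 CPM, and its capillary levels 584, 617 and 720 CPM. The arterial range lay below both others, with an arterial over capillary log2 ratio of -0.73 ± 0.14, whereas the venous and capillary ranges overlapped and the venous level was the lower of these 2 in 6 of 7 libraries. The spread among sub-clusters was wider, from 290 CPM in the arterial sub-cluster led by Mgp and Fbln5 to 783 CPM in an unzoned sub-cluster led by Adm and Atf3.

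Itgb1, Dag1 and Bcam were higher in arteries than in capillaries in 7 of 7 libraries, with log2 ratios of 0.49 ± 0.05, 0.59 ± 0.09 and 0.47 ± 0.08. Mean levels in the arterial, capillary and venous zones were 476, 339 and 362 CPM for Itgb1, 116, 77.1 and 96.98 CPM for Dag1, and 233, 170 and 188 CPM for Bcam. Dag1 and Bcam were also higher in veins than in capillaries in 7 of 7 libraries. Like Mcam, Itgb1, Dag1 and Bcam were higher in smooth muscle-like than in endothelial-like cells. The part of smooth muscle RNA in their arterial levels was not tested. Itgav was lower in arteries than in capillaries in 7 of 7 libraries (14.8 against 20.2 CPM). Itga1, by contrast, had close zone means of 495, 466 and 489 CPM and an arterial over capillary log2 ratio of 0.09 ± 0.08. Its venous over capillary log2 ratio was 0.07 ± 0.23 (-0.28 to 0.30), and the sign separated the 2 experiments. Veins were below capillaries in the Lama4 experiment (459 against 501 and 485 against 511 CPM in WT, 436 against 528 CPM in Lama4-/-). They were above capillaries in the Lama5 experiment (means of 569 against 482 CPM in WT and 451 against 380 CPM in Tek-Cre:Lama5-/-). The share of Itga1 among alpha chain UMIs was 53.9% in the arterial and 40.9% in the capillary zone.

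Itgb4 was higher in arteries than in capillaries in 7 of 7 libraries, but the size of this difference separated the 2 experiments. Arterial levels were 14.9 to 22.6 CPM in all libraries. Capillary levels were 0.6 to 0.8 CPM in the 3 libraries of the Lama4 experiment and 9.3 to 12.1 CPM in the 4 libraries of the Lama5 experiment. All 7 of 7 oligodendrocyte markers had UMIs in the capillary zone of each library, and they summed to 68.2 to 96.7 CPM in the Lama4 experiment and 444 to 496 CPM in the Lama5 experiment. Their part in the capillary Itgb4 level was not tested.

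**Figure D2:**
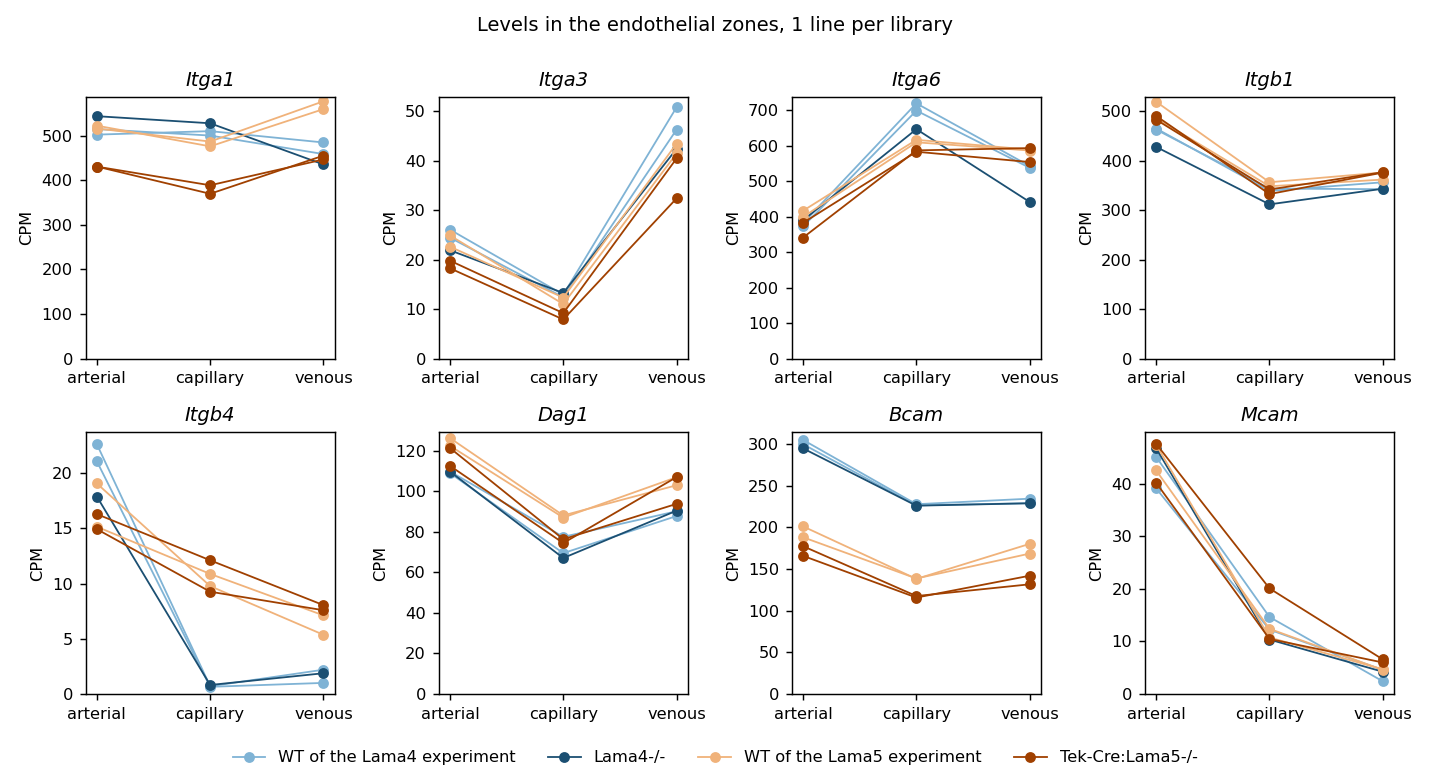
Level (CPM) of 8 receptor genes in the arterial, capillary and venous endothelial zones, 1 line for each of the 7 libraries, in a panel per gene. The lines of Mcam fall from artery to vein, those of Itga3 rise to the vein, those of Itga6 are lowest in arteries, and those of Itga1 show no common slope.

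The comparison of Tek-Cre:Lama5-/- with its own WT asks whether the receptors changed where endothelial laminin alpha5 is missing. In endothelial-like cells Itga1 and Bcam fell and no receptor gene rose. The fall of Itga1 was 15.9% and that of Bcam 11.1% in the fitted fold changes. Of the 9 receptor genes with enough counts (all but Itga7), 2 of 9 passed an adjusted p of 0.05 in edgeR's quasi-likelihood test, beside 19.9% of all genes (2624 of 13180). The median log2 fold change of the 9 genes was 0.02, and that of all genes -0.0015. Fold changes are scaled by TMM, which put the endothelial values 0.074 to 0.083 above the ratio of plain CPM on the log2 scale.

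Itga1 stood at 515 and 508 CPM in the WT libraries and at 411 and 403 CPM in the Tek-Cre:Lama5-/- libraries. Both knockout libraries were lower than both WT libraries, and the gap was larger than the spread within a group (511 ± 5.0 against 407 ± 5.7, SD, n = 2). The fitted log2 fold change was -0.25 (SE 0.02, adjusted p 1.1e-12), and it held with each library left out, with DESeq2 and with each other cell filter. Bcam stood at 156 and 160 CPM in WT and at 133 and 134 CPM in Tek-Cre:Lama5-/-, again with no overlap. In plain CPM 6 of the 9 receptor genes had groups that did not overlap, and the share of all genes was not counted. The log2 fold change of Bcam was -0.17 (SE 0.03, adjusted p 3.2e-05), and 0.014 was its adjusted p with DESeq2. Pericyte markers in endothelial-like cells summed to 42.8 and 31.0 CPM in WT and to 48.7 and 34.0 CPM in Tek-Cre:Lama5-/-, at most 0.164% of their level in pericyte-like cells, with 8 of 8 markers present in each library.

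Endothelial-like cells were spread differently over clusters in WT and knockout. The cluster led by Tfrc and Adm held 1448 and 1485 cells in WT and 894 and 820 in the knockout, that led by Sertad1 and Ier5l 588 and 645 against 944 and 991, and that led by 2900060B14Rik and Hist4h4 778 and 798 against 1056 and 1174. Within the 14 endothelial sub-clusters with at least 20 cells in each of the 4 libraries, Itga1 was lower in plain CPM in both knockout libraries than in both WT libraries in 12 and higher in 0. For Bcam these counts were 10 and 0. Genes that did not pass the test had 9 and 0 (Dag1), 7 and 0 (Itga3), 6 and 0 (Itga6) and 5 and 1 (Itgb1). The counts were 4 and 3 for Itgb4, 3 and 2 for Mcam and 1 and 2 for Itgav. Plain CPM put the log2 ratios of the class 0.074 to 0.083 below the fitted ones. The share of all genes with such counts was not taken, so the counts do not set Itga1 and Bcam apart. The part of the cluster shift in the class values was not tested.

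The other 7 receptor genes did not pass. Itga6 was at 559 and 561 CPM in WT and 538 and 538 CPM in Tek-Cre:Lama5-/-, lower as plain CPM, but its fitted log2 fold change was 0.02 (SE 0.02, adjusted p 0.54), so its direction depends on the scaling. Itgb1 was at 401 and 380 against 383 and 374 CPM, with a fitted log2 fold change of 0.03, and its sign also turned between the scales. Itga3 was at 21.3 and 23.2 CPM in WT and 17.3 and 20.1 CPM in Tek-Cre:Lama5-/- (log2 fold change -0.17, SE 0.08, adjusted p 0.12), and without knockout replicate 2 Itga3 passed (-0.29, adjusted p 0.020). Dag1 was at 103 and 101 CPM in WT and at 93.7 and 89.9 CPM in the knockout (-0.08, adjusted p 0.14).

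Itgav was at 16.4 and 16.8 CPM in WT and 17.9 and 18.0 CPM in the knockout (0.19, adjusted p 0.094). The low level of Mcam, at 17.5 and 16.5 CPM in WT and at 21.05 and 16.1 CPM in the knockout, rested on knockout replicate 1 (0.21, adjusted p 0.090). Without knockout replicate 2 its log2 fold change was 0.38 with an adjusted p of 0.0011, and Mcam also passed with doublet-like cells kept (0.27, adjusted p 0.040) and with a stricter cell filter (0.28, adjusted p 0.033). Itgb4 had a log2 fold change of 0.04 (adjusted p 0.86).

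**Figure D3:**
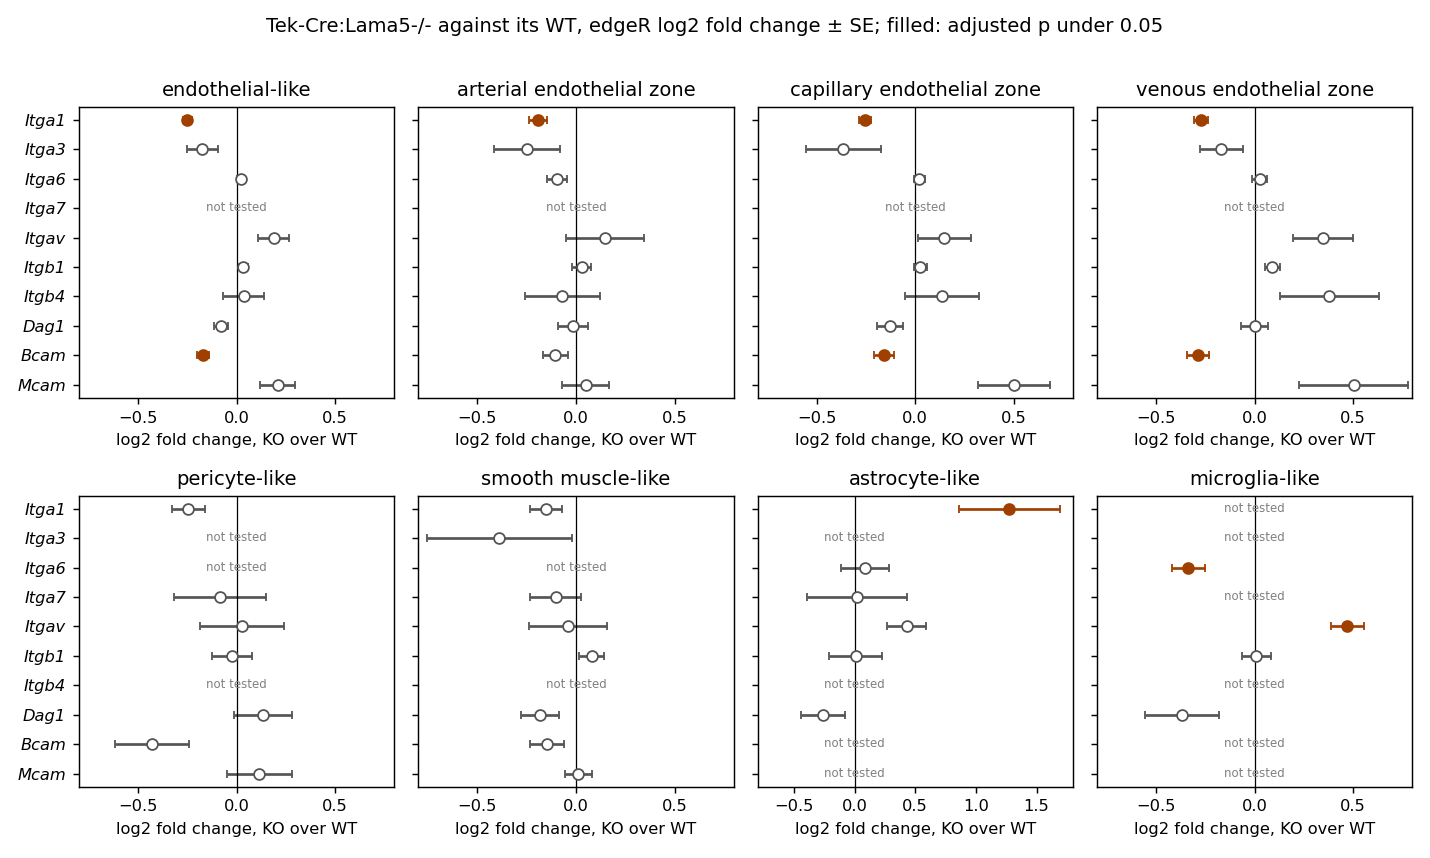
Fitted log2 fold change (points) with its SE (bars) of each receptor gene in Tek-Cre:Lama5-/- against WT, in endothelial-like cells, 4 other cell classes and 3 endothelial zones. Filled points passed an adjusted p of 0.05: Itga1 lies at -0.25 in endothelial-like cells and between -0.19 and -0.27 in the zones, and near 1.27 in astrocyte-like cells.

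The fall of Itga1 was present in each vessel zone. In arteries Itga1 went from 517 and 523 CPM to 431 and 431 CPM (log2 fold change -0.19, SE 0.05, adjusted p 0.0014), although this call was lost without WT replicate 2 (adjusted p 0.071). In capillaries it went from 487 and 477 CPM to 389 and 370 CPM (-0.26, SE 0.03, adjusted p 2.1e-09). In veins it went from 578 and 560 CPM to 447 and 456 CPM (-0.27, SE 0.04, adjusted p 4.0e-06). The knockout and WT libraries of Itga1 did not overlap in any zone. In plain CPM this held for 5 of 9 receptor genes in arteries, 6 of 9 in capillaries and 6 of 9 in veins. The share of all genes without overlap was not counted, so the lack of overlap does not set Itga1 apart. Plain CPM put the log2 ratios 0.063 to 0.084 (arteries), 0.084 to 0.098 (capillaries) and 0.052 to 0.065 (veins) below the fitted ones.

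Bcam passed in capillaries and veins. In veins it went from 169 and 180 CPM to 142 and 132 CPM (-0.29, SE 0.06, adjusted p 0.00066). In capillaries it went from 139 and 138 CPM to 116 and 118 CPM (-0.16, SE 0.05, adjusted p 0.038), and this call was lost with DESeq2 and with each library left out. In arteries Bcam went from 188 and 201 CPM to 166 and 177 CPM (-0.10, adjusted p 0.42). The differences between zones were tested as interactions, and 0 receptor genes passed (edgeR; the lowest adjusted p was 0.54, for Mcam between arteries and capillaries), beside 0.54% of all genes between arteries and capillaries, 0.287% between veins and capillaries and 0.234% between arteries and veins. An interaction that misses the threshold does not show that the zones respond alike. Receptor genes called numbered 1 of 9 in arteries beside 6.63% of all genes, 2 of 9 in capillaries beside 9.55%, and 2 of 9 in veins beside 9.23%.

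Mcam in capillaries was again set by 1 library, at 12.4 and 10.7 CPM in WT and at 20.1 and 10.5 CPM in the knockout (0.50, SE 0.18, adjusted p 0.073). Its log2 fold change was 0.87 without knockout replicate 2 and -0.05 without knockout replicate 1. The replicate block gave Mcam 0.49 with an adjusted p of 0.028, and Mcam also passed without WT replicate 1 (0.61), with doublet-like cells kept (0.72), with the stricter cell filter (0.61) and at clustering resolution 2 (0.82). In the capillary zone smooth muscle markers summed to 39.3 and 43.8 CPM in WT and to 41.5 and 43.1 CPM in the knockout, pericyte markers to 34.0 and 34.6 against 34.0 and 37.2 CPM, and oligodendrocyte markers to 459 and 496 against 444 and 451 CPM. Their part in the Mcam level was not tested.

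In mural cells Itga1 and Bcam were lower in both Tek-Cre:Lama5-/- libraries than in both WT libraries, but no receptor gene passed the test. Such a lack of overlap in plain CPM was seen for 3 of 7 receptor genes in pericyte-like and 5 of 8 in smooth muscle-like cells. These genes were each lower in the knockout, and the share of all genes without overlap was not counted. Plain CPM put the log2 ratios 0.047 to 0.064 (pericyte-like) and 0.084 to 0.122 (smooth muscle-like) below the fitted ones. In pericyte-like cells 0 of 7 genes passed with edgeR and 0 with DESeq2, beside 0.319% of all genes with edgeR, and 2 had an unadjusted p under 0.05. Itga1 was at 1474 and 1508 CPM in WT and at 1249 and 1163 CPM in the knockout (-0.25, SE 0.08, adjusted p 0.26). Bcam was at 174 and 212 CPM in WT and at 116 and 163 CPM in the knockout (-0.43, SE 0.19, adjusted p 0.45). Libraries held 158 to 253 pericyte-like cells, and the SE of the Itga1 fold change was 0.08 here and 0.02 in endothelial-like cells.

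Smooth muscle-like cells had 0 of 8 genes past the test with edgeR, 0 with DESeq2 and 0 with an unadjusted p under 0.05, beside 2.34% of all genes with edgeR. Itga1 was at 555 and 566 CPM in WT and 481 and 469 CPM in the knockout (-0.15, SE 0.08, adjusted p 0.44). Bcam was at 458 and 460 CPM in WT and 390 and 389 CPM in the knockout (-0.15, SE 0.09, adjusted p 0.50). Dag1 followed with 359 and 390 CPM in WT against 298 and 325 CPM (-0.18, SE 0.10, adjusted p 0.44).

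A mural cluster led by Rgs5 and Olfr558, with 224 to 270 cells in each library of the Lama5 experiment, carried smooth muscle and pericyte markers alike and stayed unnamed. It held 973 and 963 CPM of Itga1 in WT and 736 and 742 CPM in the knockout. Bcam was at 466 and 462 CPM in WT and at 387 and 385 CPM in the knockout in these cells. No test was made on this cluster, because it was picked out after its values were seen. With the stricter cell filter these cells joined the smooth muscle-like class, and Itga1 then passed there (-0.27). The knockout effect on Itga1 in endothelial-like cells differed from that in pericyte-like cells by -0.0059 (SE 0.11, adjusted p 0.995) and from that in smooth muscle-like cells by -0.10 (SE 0.08, adjusted p 0.75). No receptor gene passed either of these interactions with edgeR, beside 0.138% and 0.744% of all genes.

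**Figure D4:**
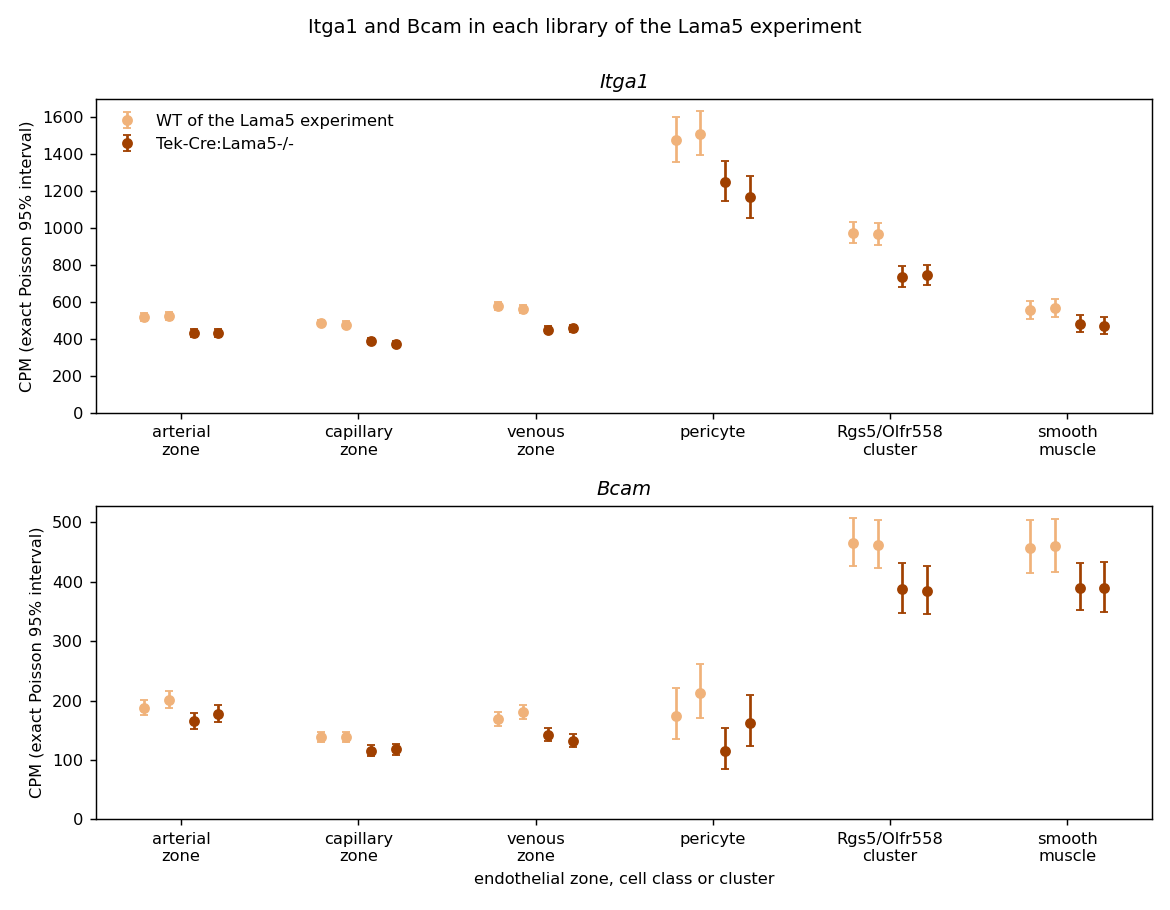
Level (CPM) of Itga1 and Bcam in each of the 4 libraries of the Lama5 experiment, in the endothelial zones, pericyte-like cells, the cluster led by Rgs5 and Olfr558, and smooth muscle-like cells; bars are exact Poisson 95% intervals, which cover counting error only. The Tek-Cre:Lama5-/- points of Itga1 lie below both WT points in each cell group, for example 1249 and 1163 against 1474 and 1508 CPM in pericyte-like cells.

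Outside the vessel wall, the levels of 2 alpha chain genes moved in opposite directions in microglia-like cells. Itga6 fell and Itgav rose, which made 2 of the 4 receptor genes tested, beside 13.6% of all genes. Itgav was at 131 and 143 CPM in WT and at 179 and 180 CPM in Tek-Cre:Lama5-/- (0.47, SE 0.08, adjusted p 2.1e-05), and this call held with DESeq2. Itga6 was at 166 and 178 CPM in WT and at 127 and 131 CPM in the knockout (-0.34, SE 0.08, adjusted p 0.0030). The groups overlapped for neither gene, but in plain CPM this held for 4 of the 4 receptor genes tested. The share of all genes without overlap was not counted. Plain CPM put the log2 ratios 0.065 to 0.083 below the fitted ones. The Itga6 call was lost with DESeq2 (adjusted p 0.11) and without WT replicate 2 or knockout replicate 1. Endothelial markers in these cells summed to 91.7 and 79.6 CPM in WT and to 75.5 and 87.4 CPM in the knockout, with 8 of 8 present. The number of cells also differed. The microglia-like cluster led by Plek and Nlrp3 held 490 and 451 cells in WT and 899 and 849 in the knockout. The part of this difference in the Itga6 and Itgav levels was not tested. The effect on Itga6 in endothelial-like cells exceeded that in microglia-like cells by 0.35 (SE 0.08, adjusted p 0.0040; 8.07% of all genes passed this interaction), whereas that on Itgav did not pass (-0.29, SE 0.12, adjusted p 0.14).

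In astrocyte-like cells Itga1 was the only receptor gene called of 6 tested, beside 16.1% of all genes. It was at 8.5 and 13.7 CPM in WT and at 25.2 and 31.7 CPM in Tek-Cre:Lama5-/- (1.27, SE 0.42, adjusted p 0.034), which are 8, 15, 13 and 16 UMIs. The call was lost with DESeq2 (adjusted p 0.39), with each library left out, and with doublet-like cells kept. Microglia markers in these cells moved with it, at 267 and 242 CPM in WT and 1077 and 833 CPM in the knockout, with 7 of 7 present. Endothelial markers summed to 114 and 145 against 402 and 170 CPM and pericyte markers to 142 and 139 against 155 and 350 CPM. The cells were also spread differently over clusters: the astrocyte-like cluster led by Cldn10 and Aldoc held 134 and 161 cells in WT and 49 and 68 in the knockout, and that led by Gria2 and Dclk1 held 162 and 185 against 182 and 172. Median UMIs of astrocyte-like cells were 2126 and 1955 in WT and 1177 and 1397 in the knockout. The part of these in the Itga1 level was not tested. The interaction between endothelial-like and astrocyte-like cells, which 15.6% of all genes passed, was -1.48 for Itga1 (adjusted p 0.011). Itgav was at 137 and 141 CPM in WT and at 182 and 206 CPM in the knockout (0.43, adjusted p 0.070).

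Partners and adaptors of the receptors moved in both directions in endothelial-like cells, where 19.9% of all genes were called (1452 higher and 1172 lower of 13180). A list of 9 genes held tetraspanins, syndecans and Rpsa, a ribosomal protein also described as a laminin receptor. With edgeR 3 of 9 rose (Cd9, Sdc4 and Rpsa) and 3 of 9 fell, and DESeq2 called 4 of 9. Cd151, the tetraspanin that binds laminin-binding integrins most tightly, fell by 0.21 on the log2 scale (adjusted p 4.0e-07), and the syndecan Sdc3 fell by 0.35 (3.9e-08), while Cd9 rose by 0.24 (3.1e-08) and Sdc4 by 0.46 (0.00041). Of 15 integrin adaptor genes, 3 rose and 6 fell with edgeR, and DESeq2 called 6 of 15. Lims2, a partner of integrin-linked kinase, fell by 0.34 (adjusted p 2.4e-13) and Parvb, of the same complex, by 0.17 (4.9e-07), while Bcar1 rose by 0.27 (8.5e-06) and Vcl, encoding vinculin, by 0.17 (4.5e-05).

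Among genes of the dystroglycan side and the remaining matrix integrins 1 was called, beside the same 19.9% of all genes, and the difference between lists was not tested. Of 9 genes of the dystrophin-glycoprotein complex, Sntb2 rose with edgeR (0.16, adjusted p 0.046) and none fell, while 0 passed with DESeq2. Of 12 genes that build the laminin-binding sugar of dystroglycan, 0 passed with edgeR or DESeq2 and 1 had an unadjusted p under 0.05. Of 7 other matrix integrin genes, 0 passed with edgeR or DESeq2 and 1 had an unadjusted p under 0.05. Among 9 laminin chain genes 2 rose and 2 fell with edgeR, and DESeq2 called 3. Lama4 rose by 0.73 (edgeR's adjusted p 1.0e-14) and Lamb1 by 1.04 (0.049). Lamb1 was low and its libraries overlapped, at 0.87 and 0.48 CPM in WT and at 1.91 and 0.70 CPM in the knockout. The genes that fell were Lama5, which is the targeted gene itself, and Lamb2, by 0.22 (2.2e-06). In microglia-like cells Itga5, a fibronectin receptor chain, rose by 1.27 and Itgb5 fell by 0.44.

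The WT libraries of both experiments also differed from each other. In endothelial-like cells 7 of 10 receptor genes differed between WT of the Lama5 experiment and WT of the Lama4 experiment, beside 55.6% of all genes. Bcam was lower in the Lama5 experiment by 0.50 on the log2 scale (156 and 160 against 244 and 242 CPM), and the knockout effect on Bcam above was smaller than this. Dag1 was higher by 0.34, Itgb4 by 1.01, Itgb1 by 0.18, Itga1 by 0.16 and Itga6 by 0.10, and Itga7 was lower (-1.27, adjusted p 0.026, lost with DESeq2 and without replicate 2 of either WT group). Experiment and pool of mice cannot be told apart here, so knockouts were compared with their own WT only.

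The Lama4-/- comparison rests on 1 knockout library, so no test was made and values are given with intervals for counting error alone. In endothelial-like cells no receptor gene was past a log2 ratio of 0.32 in either direction against each WT library, that is 0 of 8 with a mean of at least 10 CPM (Itga7 and Itgb4 were below), beside 3.47% of all genes. Itga1 was at 498 CPM in Lama4-/- and at 492 and 499 CPM in WT (ratio 1.006). Bcam was at 240 CPM in Lama4-/- and at 244 and 242 CPM in WT (ratio 0.987). Mcam was at 18.6 CPM in Lama4-/-, with 16.0 and 18.7 CPM in WT. The values of Itga1 and Mcam lay between both WT libraries and that of Bcam just below them. By zone, however, the Itga1 ratio went in both directions. It was 1.069 (interval 1.014 to 1.127) in arteries, 1.045 (1.002 to 1.090) in capillaries and 0.925 (0.877 to 0.976) in veins. The Itga1 intervals of single libraries overlapped in each zone.

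Itga6 and Itgb1 had a lower interval in Lama4-/- endothelial-like cells than in both WT libraries. Itga6 was at 512 CPM in Lama4-/- and at 561 and 565 CPM in WT. The ratio was 0.908 with a 95% interval of 0.886 to 0.931, and the Poisson interval of the knockout lay below those of both WT libraries, as it did for 5.66% of genes (7.3% lay above). Itgb1 was at 348 CPM against 376 and 371 CPM (ratio 0.931, interval 0.903 to 0.960). Itga3 had a lower ratio at 22.1 CPM against 26.9 and 24.2 CPM (0.865, interval 0.765 to 0.976), but the intervals of single libraries overlapped. The difference in Itga6 was widest in veins, at 442 CPM in Lama4-/- and 538 and 543 CPM in WT (ratio 0.817, interval 0.776 to 0.861), beside 3.15% of genes with a lower and 2.59% with a higher interval. In capillaries Itga6 was at 647 against 700 and 720 CPM (ratio 0.913), beside 3.65% lower and 3.02% higher. In arteries it was at 390 against 373 and 382 CPM (ratio 1.034), within the counting error, and no receptor gene stood outside both WT intervals there, beside 2.66% of genes lower and 1.69% higher.

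The lower venous Itga6 level was also seen within the venous sub-cluster led by Lcn2 and Lrg1. There Itga6 was at 347 CPM in Lama4-/- and at 441 and 436 CPM in WT, so that the Lama4-/- library was below both WT libraries. Itgav was at 19.96 CPM against 16.5 and 17.8 CPM in endothelial-like cells (ratio 1.167, interval 1.019 to 1.334), with overlapping intervals of single libraries. In pericyte-like, smooth muscle-like, astrocyte-like and microglia-like cells no receptor gene had a Lama4-/- interval outside those of both WT libraries. Beside this, the shares of all genes that lay lower and higher were 0.586% and 0.383% in pericyte-like, 2.36% and 0.728% in smooth muscle-like, 1.12% and 0.666% in astrocyte-like, and 4.9% and 4.59% in microglia-like cells.

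**Figure D5:**
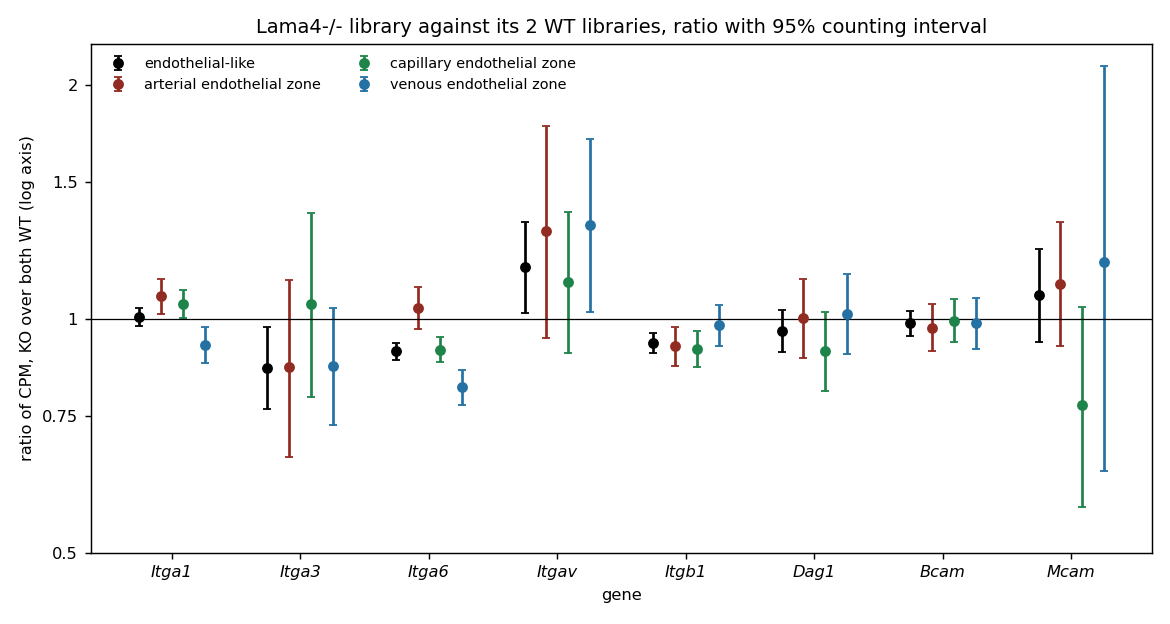
Ratio of the level in the 1 Lama4-/- library to that in the pooled WT libraries of its experiment (points, log axis) with 95% intervals for counting error, for 8 receptor genes in endothelial-like cells and the 3 zones. Itga6 lies at 0.817 in veins, 0.913 in capillaries and 1.034 in arteries.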

How the data were processed

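The deposited files hold raw UMI counts per gene and barcode, written by Cell Ranger 3.1.0 per the file headers; the submitters' processing notes also name mm10 and Seurat 3.1, and strand settings are not given in the sources used here. Files were matched to groups by the labels. Barcodes needed at least 500 genes and at most 15.0% mitochondrial UMIs, and barcodes with high simulated-doublet scores (0.8% per 1000 barcodes) were removed. Counts were scaled to 10000 UMIs, 2000 variable genes and 30 components entered Leiden clustering at resolution 1 with 15 neighbours (igraph 0.11.9, scikit-learn 1.9.0). A cluster was named if at least 3 markers of a class were detected and its 10 leading genes held no excess of another class. Endothelial-like cells were clustered again (1000 genes, 20 components, 30 neighbours), and a sub-cluster took the zone whose marker score was highest by 0.6 (log2) and above -0.5; this rule was set after a first version had been seen on the data.

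UMIs were summed per library and class. Tek-Cre:Lama5-/- and its WT (2 libraries each) were compared with edgeR 4.0.16 (quasi-likelihood F test, filterByExpr, TMM, Benjamini-Hochberg over all genes tested, threshold 0.05), in R 4.3.3, for classes with at least 50 cells in each library. Differences between classes or zones were tested as interactions with library as a block. DESeq2 1.42.0 was an alternative. The test was checked on simulated counts, with the same preset spread between libraries for all genes. In endothelial-like cells the test recovered 79.2% of genes changed by 0.5 (log2) and 91.1% of those changed by 1. Changes below 0.5 were not simulated, so these shares do not cover the smaller fold changes of the receptor genes there. In pericyte-like cells these shares were 12.9% and 55.9%, so a gene that did not pass there may still have changed. Values of the Lama4 experiment have exact Poisson 95% intervals, which cover counting error only. All 10 members are named; of the other gene lists, the called genes of largest change. The members and lists were chosen with earlier results of these data known. Of 31053 gene IDs, 30934 matched GENCODE M21 on GRCm38.

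Alternatives were DESeq2, other size factors, no filter on low counts, a replicate block, each library left out, doublet-like cells kept, a stricter cell filter (1000 genes, 10.0% mitochondrial) and resolution 2. Cells without a class entered no comparison. Replicate numbers did not pair the libraries.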

Additional observations from a re-analysis of the deposited data

Results flagged for a closer look

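For 2 receptor genes an interaction test of the Tek-Cre:Lama5-/- effect between cell classes passed. The interactions were run with edgeR only. For Itga1 the effect in endothelial-like cells minus that in astrocyte-like cells was -1.48 on the log2 scale (SE 0.41, adjusted p 0.011, edgeR's quasi-likelihood test), beside 15.6% of all genes in that interaction. The astrocyte side of it rests on 8, 15, 13 and 16 UMIs, and the astrocyte call was lost under several alternatives. For Itga6 the effect in endothelial-like cells minus that in microglia-like cells was 0.35 (SE 0.08, adjusted p 0.0040), beside 8.07% of all genes. The Itga6 call in microglia-like cells was itself lost with DESeq2.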

How the results depend on the processing

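The lower Itga1 and Bcam levels in Tek-Cre:Lama5-/- endothelial-like cells kept their direction and stayed past the threshold under each alternative run. Of the fold changes of single receptor genes under alternatives, 646 kept direction and side of the threshold, 18 lost and 11 gained the call, and 54 changed sign, and no sign change concerned Itga1 or Bcam. The cause of the changes below was not tested. DESeq2 called fewer genes: 959 in endothelial-like, 6 in pericyte-like, 69 in smooth muscle-like, 431 in astrocyte-like and 432 in microglia-like cells, 213, 340 and 307 in arterial, capillary and venous zones, and 4773 between the WT groups. With DESeq2 the receptor genes called were 0 in astrocyte-like cells, 1 in microglia-like cells and 1 in capillaries. Without a filter on low counts 50 genes were called in pericyte-like cells. With the stricter cell filter 544 genes and 1 receptor gene were called in smooth muscle-like cells. In astrocyte-like cells 0 receptor genes were called with doublet-like cells kept and at resolution 2, where 82 genes were called and Itga1 was too low to test. A minimum of 50 CPM left 108 genes past a log2 ratio of 0.32 in Lama4-/-.

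Replicate numbers are shared by the Lama5 groups, but same-numbered libraries did not deviate together (correlations across genes of -0.023 to 0.018), so they share only a number. The replicate block called 29 genes in pericyte-like cells, gave venous Dag1 -0.0015 and made capillary Mcam pass (0.49), and all other receptor calls held.

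The following fold changes (log2), none of them called, changed sign. Without the filter on low counts these were Itgb1 in pericyte-like cells (0.00073), and Itga7 (-0.040) and Itgb1 (-0.047) in astrocyte-like cells. With doublet-like cells kept they were Itgav in smooth muscle-like cells (0.043) and Itga7 in astrocyte-like cells (-0.51). With the stricter filter they were Itgb1 in pericyte-like cells (0.039), Itgav in smooth muscle-like cells (0.13), Itga6 in astrocyte-like cells (-0.0067), and Dag1 (0.0017) and Itgb4 (0.047) in arteries. At resolution 2 they were Itga6 (-0.030), Itgb1 (-0.57) and Dag1 (0.058) in astrocyte-like cells and Itgav in arteries (-0.049). Venous Dag1 was -0.0023 with DESeq2, -0.013 without the filter, -0.028 with doublet-like cells kept and -0.010 with the stricter filter. Among zone ratios, arterial over capillary Itga3 was 0.78 with doublet-like cells kept, and at resolution 2 Itga1, Itgb1 and Dag1 were -0.03, 0.44 and 0.44.

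With 1 library left out, which assumes that the lone library of a group varies like the others, called genes ranged from 1455 to 1965 in endothelial-like, 27 to 41 in pericyte-like, 635 to 1505 in astrocyte-like and 816 to 1017 in microglia-like cells. They ranged from 372 to 566 in arteries, 656 to 783 in capillaries and 455 to 591 in Lama4-/- endothelial-like cells. Receptor genes called ranged from 2 to 4 in endothelial-like, 0 to 0 in astrocyte-like and 1 to 2 in microglia-like cells, and from 0 to 1 in arteries and 1 to 2 in capillaries. Fold changes whose sign turned ranged as follows. In endothelial-like cells Itgb1 ranged from -0.0067 to 0.073 and Itgb4 from -0.070 to 0.14. In pericyte-like cells Itgav ranged from -0.17 to 0.29, Itga7 from -0.30 to 0.18, Itgb1 from -0.051 to 0.026 and Dag1 from -0.027 to 0.29. In smooth muscle-like cells Mcam ranged from -0.028 to 0.073, Itgav from -0.25 to 0.24 and Itga3 from -1.09 to 0.044. In astrocyte-like cells Itgb1 ranged from -0.099 to 0.11, Itga6 from -0.16 to 0.29 and Itga7 from -0.26 to 0.28, and in microglia-like cells Itgb1 from -0.0062 to 0.044. In arteries Mcam ranged from -0.071 to 0.16, Dag1 from -0.073 to 0.050, Itgb4 from -0.22 to 0.12, Itgav from -0.022 to 0.37 and Itgb1 from -0.019 to 0.079. In capillaries Mcam ranged from -0.051 to 0.87 and Itgb4 from -0.076 to 0.33, in veins Dag1 from -0.097 to 0.084 and Itga6 from -0.028 to 0.079, and between the WT groups Mcam from -0.026 to 0.19.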
